A study of Homo sapiens with 6 samples.

Results

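The genes described here belong to the unfolded protein response and the integrated stress response, the programmes by which a cell answers misfolded protein in the endoplasmic reticulum (ER) and a shortage of amino acids. They were chosen by name from a list of 38 symbols, and every probe set to which the array's annotation gives 1 of these symbols was taken. This found 37 of the 38 genes among 19775 genes with such a probe set. SYVN1 was left out, because its probe set also carries the symbol of a microRNA gene. The cells were A549, an established human lung adenocarcinoma line. On 3 Affymetrix HG-U133 Plus 2.0 arrays they had been transiently silenced for NME2 with a small interfering RNA duplex (NME2-depleted), and on 3 arrays they had received control duplexes (control). All 6 arrays thus came from transfected cells of 1 line. Within a group the submitters speak of biological replicates without describing separate cultures. The p-values therefore set a group difference only against the spread among these samples, which may be technical. The duplexes have one supplier in the series text and another in the methods of the paper.

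HSPA5 (BiP), the main chaperone of the ER lumen, holds the sensor proteins of the ER membrane inactive until unfolded protein draws it away. The sensor IRE1, encoded by ERN1, then splices XBP1 mRNA, ATF6 is cut into an active transcription factor, and both factors raise transcription of chaperones and of genes for ER-associated degradation. The sensor PERK, encoded by EIF2AK3, phosphorylates the initiation factor eIF2, as do kinases that respond to amino acid shortage or double-stranded RNA, and translation of ATF4 mRNA then increases while most other translation falls. ATF4 switches on genes of amino acid synthesis and import together with regulators of stress and cell death such as DDIT3 (CHOP). Because ATF4 is controlled by translation, XBP1 by splicing and the sensors by phosphorylation or cleavage, arrays of mRNA show these steps only through their target genes.

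Proximal promoters of 12 members held letters of the sequence elements through which these branches are known to act. The 250 bases before the first listed start of each gene were read from RefSeq promoter windows (GRCh38.p14), which held 36 of the 38 genes, and were searched on both strands. The other windows held none of the elements searched. The letters searched were CCAAT and CCACG with 9 bases between them for the ER stress response element (ERSE), to which NF-Y and ATF6 or XBP1 bind, ATTGG and CCACG with 1 base between them for its shorter form ERSE-II, TGACGTGG for the core of the unfolded protein response element, and TGATGNAA for the C/EBP-ATF response element (CARE) of ATF4. In the sequences below, written 5′ to 3′ on the strand of the gene, capitals mark the matches and the coordinates are those of the printed stretch. They are shown because they carry the element of their branch in genes whose signals are described later.
HSPA5, chr9:125241376-125241424, minus strand: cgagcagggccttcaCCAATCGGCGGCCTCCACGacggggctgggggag
HSP90B1, chr12:103930201-103930354, plus strand: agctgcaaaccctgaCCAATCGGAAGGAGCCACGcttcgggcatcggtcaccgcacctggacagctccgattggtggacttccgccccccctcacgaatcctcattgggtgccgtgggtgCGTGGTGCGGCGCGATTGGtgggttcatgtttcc
CALR, chr19:12938369-12938417, plus strand: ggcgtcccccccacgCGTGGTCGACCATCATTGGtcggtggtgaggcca
XBP1, chr22:28800588-28800636, minus strand: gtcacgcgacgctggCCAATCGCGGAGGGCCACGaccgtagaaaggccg
HERPUD1, chr16:56931951-56932050, plus strand: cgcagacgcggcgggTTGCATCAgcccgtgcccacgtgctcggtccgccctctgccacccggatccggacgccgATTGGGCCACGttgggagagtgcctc
ASNS, chr7:97872454-97872491, minus strand: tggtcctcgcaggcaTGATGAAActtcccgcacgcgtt
CHAC1, chr15:40953247-40953284, plus strand: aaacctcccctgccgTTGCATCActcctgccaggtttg
ATF3, chr1:212565201-212565238, plus strand: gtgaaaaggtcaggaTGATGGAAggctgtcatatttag

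The ERSE was found in 5 of 13 chaperone promoters (HSPA5, HSP90B1, CALR, CANX and CRELD2), in the promoter of XBP1 and in 0 of 14 promoters of the ATF4 branch. Of the windows of the same length before 27305 genes, 0.0806% held it. PDIA6 had no match before its first listed start but held an ERSE before its 1 other listed start. Of 3 other starts of CANX 1 held an ERSE, and the 1 other start of XBP1 held none. ASNS and ATF3, with 1 other start each, had no CARE before it. ERSE-II was found in SDF2L1, HYOU1 and HERPUD1, against 0.0513% of all windows. In HERPUD1 the same stretch held a CARE, and in HYOU1 the unfolded protein response core, which 0.667% of all windows held, overlapped ERSE-II. The CARE, a shorter and commoner string present in 3.19% of all windows, was found in ASNS, CHAC1 and ATF3, which is 3 of 14 promoters of the ATF4 branch, and in 0 of 13 chaperone promoters. A match is a description of the letters in this window, and a missing match says only that these letters are not in it.

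The silenced transcript was low on the depleted arrays. The NME2 probe set had signals of 1920, 3676 and 3216 in NME2-depleted and of 17862, 19389 and 21044 in control cells, 6.85-fold lower (limma adjusted p = 0.00032). The annotation gives this probe set the symbol NME1-NME2 as well, so it does not measure NME2 alone. Signals are the deposited linear array values, which are averages over the cells of a culture, so fewer cells with a transcript and less RNA per cell cannot be told apart. All 5 epithelial markers looked up (KRT8, KRT18, KRT19, EPCAM, CDH1) were above the filter on dim probe sets, with a summed signal of 47722 to 52652 in NME2-depleted and 50142 to 56463 in control cells. Groups were apart for 3 of these 5 (60%), against 20.6% of all genes tested. The log2 differences of these 3 were 0.71 for EPCAM (limma adjusted p = 0.0884), 0.21 for CDH1 (0.324) and -0.24 for KRT8 (0.209). The summed signal was 315 to 443 and 371 to 461 for 4 leukocyte markers, with PTPRC below the filter. It was 756 to 931 and 596 to 767 for 5 fibroblast markers and 278 to 356 and 201 to 304 for 4 endothelial markers. Control replicate 1 stood apart in interferon genes, whose 18 measured members summed to 41188 there, 10278 and 14861 in the other control arrays and 6013 to 7298 in NME2-depleted arrays. In NME2-depleted cells the mean was lower for all 13 interferon genes tested, where it was lower for 49.8% of all genes. Of these 13 genes 2 passed the threshold, where 0.54% of all genes did. The ratio of 3′ to 5′ signal of ACTB, a sign of RNA quality, was 1.33 to 1.4 in NME2-depleted and 1.2 to 1.3 in control arrays. That of GAPDH was 0.985 to 1.06 in NME2-depleted and 0.97 to 1.02 in control arrays, which overlapped. The part of these ratios in the results below was not tested.

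None of the 37 stress response genes changed past the threshold. By limma with Benjamini-Hochberg adjustment over all 27307 tested probe sets, 0 of 37 had an adjusted p under 0.05, where 0.54% of 12406 genes did, and the lowest adjusted p among them was 0.13, for VLDLR. At an unadjusted p under 0.05, 9 of 37 members stood out (24.3%), 7 higher and 2 lower in NME2-depleted cells, against 15% of all genes tested, 7.25% higher and 7.75% lower. That count was 4 of 37 without NME2-depleted replicate 1 and also without control replicate 2. The share of all tested probe sets at that p fell as well. It was 12.9% with every array, 11.4% without NME2-depleted replicate 1 and 11.2% without control replicate 2. The 15% of all genes came from every array, so it is no background for the counts of 4. Groups of arrays did not overlap for 8 of 37 members (21.6%), near the 20.6% of all genes. Of these 8 genes, 5 were higher, where 10.4% of all genes were, and 3 lower, where 10.1% were. The differences were small. The log2 difference, NME2-depleted minus control, ran from -0.29 for ATF3 to 0.34 for CALR, and the 95% intervals of the 37 genes lay between -0.53 and 0.61. The median over members was 0.018 and over all genes tested 6e-04. A mean below control was seen in 14 of 37 members (37.8%) and in 49.8% of all genes. A mean above control was thus seen in 23 of 37 members with the deposited scaling. It was seen in 16 of 37 when each array was centred on the median of all its probe sets, dim ones included. This lowered every difference by 0.048, so all genes tested, with their median of 6e-04 before, moved down with the members. Their share above control after centring was not counted, so counts after median centring, here and below, have no background beside them.

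**Figure D1:**
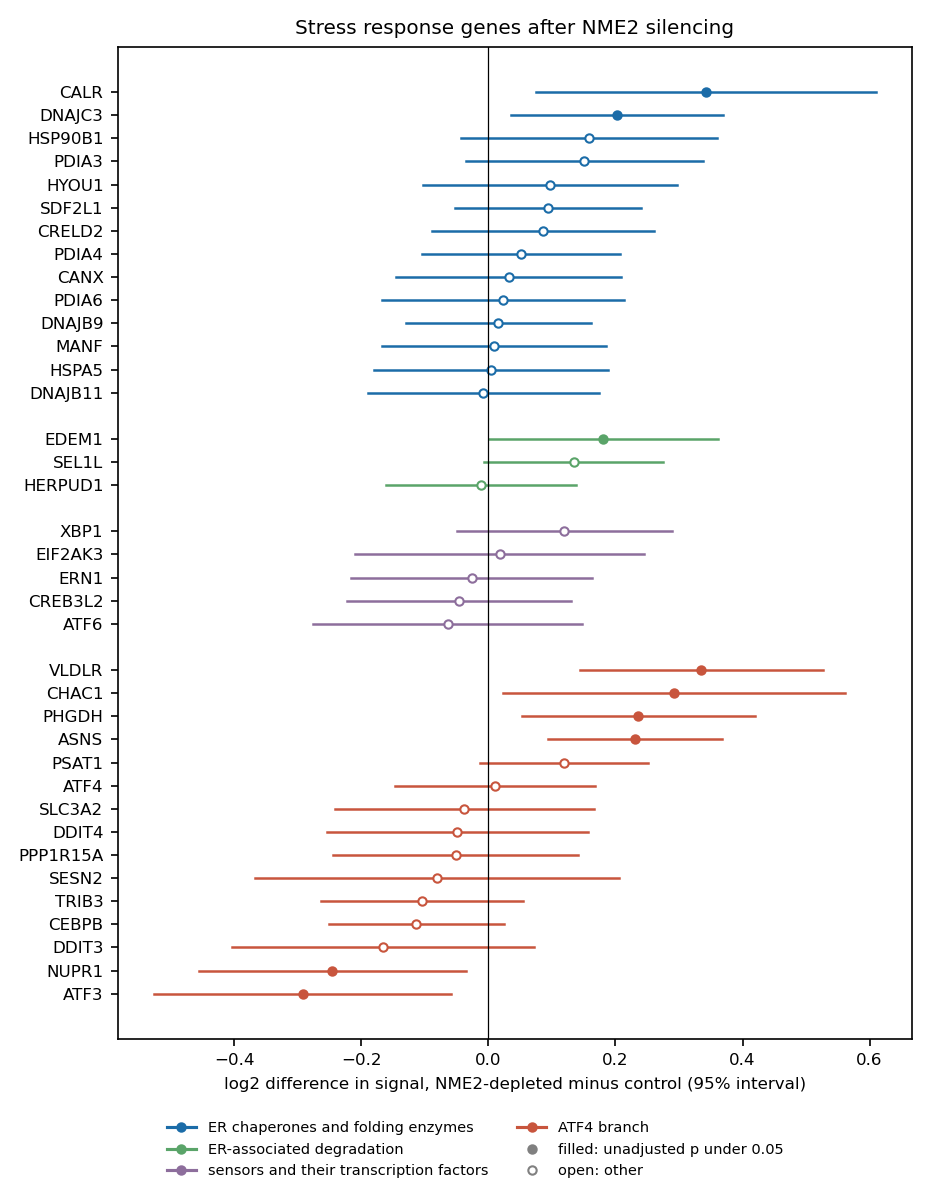
Log2 difference in signal, NME2-depleted minus control, of 37 stress response genes, grouped by branch. Points are genes, filled where the unadjusted limma p was under 0.05, and bars are 95% intervals. In the ATF4 branch VLDLR, CHAC1, PHGDH and ASNS lie to the right of 0 and ATF3 and NUPR1 to the left, whereas HSPA5 and ATF4 lie at 0.

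The ATF4 branch held the members of lowest p and the most genes whose groups did not overlap, 7 of its 15 (46.7%, where 20.6% of all genes tested did not). Its members differed in both directions. VLDLR, the very low density lipoprotein receptor and a known target of ATF4, had signals of 2191, 2026 and 2297 in NME2-depleted and 1738, 1583 and 1846 in control cells. Every depleted array lay above every control array. The mean was 2171 ± 137 against 1722 ± 132 (SD, n = 3), with 0.34 between them on the log2 scale (SE 0.09, limma adjusted p = 0.13), which is 1.26-fold. Leaving out each array in turn gave differences of 0.28 to 0.39 with adjusted p-values of 0.149 to 0.353.

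ASNS encodes asparagine synthetase, which makes asparagine from aspartate and is the classical gene of the amino acid response. Its signals were 8212, 7764 and 7901 in NME2-depleted and 6744, 6869 and 6733 in control cells. The groups were well apart, with little spread in either. The mean was 7959 ± 230 against 6782 ± 75.7 (SD, n = 3), a log2 difference of 0.23 (SE 0.06, limma adjusted p = 0.14). Whichever array was left out, this difference stayed between 0.21 and 0.25.

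PHGDH and PSAT1 encode the first enzymes of serine synthesis from a glycolytic intermediate. PHGDH had signals of 3080, 2583 and 2837 in NME2-depleted and 2436, 2282 and 2484 in control cells, and its log2 difference was 0.24 (SE 0.08, adjusted p = 0.262). PSAT1 had 15774, 15472 and 16231 against 14454, 14763 and 14493, which is 0.12 higher on that scale (SE 0.06, adjusted p = 0.435). Both were higher on all depleted arrays than on any control array, although PSAT1 was only 1.09-fold higher and the other probe set of that gene gave 0.0024. CHAC1, which breaks down glutathione, had signals of 1658, 1432 and 1513 in NME2-depleted and 1443, 1028 and 1320 in control cells. The groups touched, since control replicate 1 exceeded NME2-depleted replicate 2, and the log2 difference was 0.29 (SE 0.12, adjusted p = 0.35). Without control replicate 2, the lowest array, it was 0.15. SLC3A2, the heavy chain shared by several amino acid transporters, had a log2 difference of -0.038 and overlapping groups. None of VLDLR, ASNS, PHGDH and CHAC1 had another tested probe set.

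Most regulators of the branch lay on the other side of 0. ATF3, a stress-induced transcription factor, had signals of 711, 730 and 657 in NME2-depleted and 949, 793 and 832 in control cells. All depleted arrays lay below all control arrays. The mean was 699.5 ± 38.1 against 858 ± 81.3 (SD, n = 3), a log2 difference of -0.29 (SE 0.11, limma adjusted p = 0.278), or 1.22-fold lower. The other tested probe set, a dimmer one, gave -0.43 with overlapping groups (limma adjusted p = 0.391). NUPR1, a small stress-induced nuclear protein, had 4306, 4472 and 4374 against 4522, 5153 and 6024, differing by -0.25 (SE 0.10, adjusted p = 0.311). The depleted arrays were close together and the control arrays were not, with the highest value in control replicate 3. CEBPB, a partner of ATF4 in C/EBP-ATF dimers, had 18164, 18690 and 18696 against 19130, 20800 and 20185, a log2 difference of -0.11 (adjusted p = 0.482), again with no overlap. NUPR1, CEBPB and PSAT1 are given in full because their groups did not overlap, and so were chosen after their values were seen.

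DDIT3 (CHOP), the pro-apoptotic factor downstream of ATF4, had signals of 9401, 9986 and 7517 in NME2-depleted and 10078, 10992 and 8985 in control cells. The depleted array was the lower one within each replicate number, but the groups overlapped, and the log2 difference was -0.17 (SE 0.11, adjusted p = 0.568). With 1 array left out it ranged from -0.25 to -0.043, the latter without NME2-depleted replicate 3. TRIB3, a pseudokinase that CHOP and ATF4 induce, had 15145, 16090 and 17533 against 17160, 18274 and 16922, which differed by -0.10 (adjusted p = 0.591), and its other probe set gave -0.22 (adjusted p = 0.383). SESN2, a leucine-binding inhibitor of mTORC1 signalling, PPP1R15A (GADD34), which directs the phosphatase that reverses eIF2 phosphorylation, and DDIT4, another inhibitor of mTORC1, had log2 differences of -0.081, -0.052 and -0.049 with overlapping groups. ATF4 mRNA itself overlapped between the groups, at 13425, 12334 and 14187 in NME2-depleted and 13005, 12764 and 13848 in control cells. Its log2 difference was 0.010, with a 95% interval of -0.15 to 0.17.

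**Figure D2:**
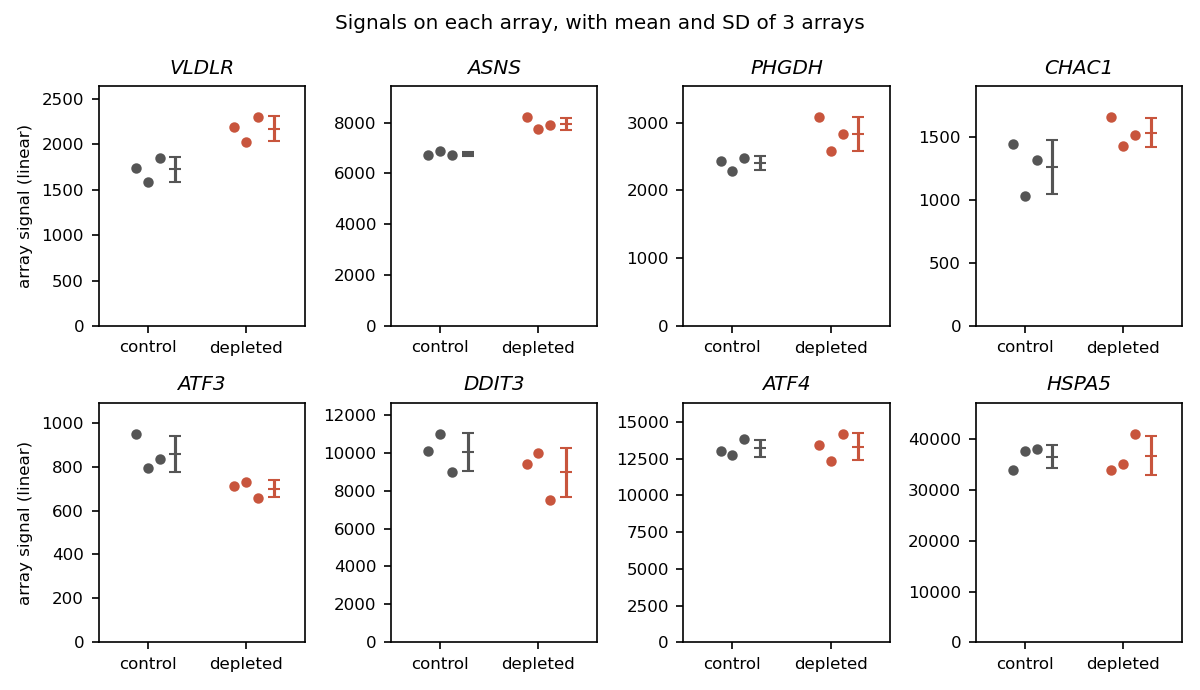
Signals of 8 stress response genes on each array. The vertical axes show linear array signal from 0, each point is an array, and the bars show mean and SD (n = 3 per group). VLDLR, ASNS and PHGDH were higher and ATF3 lower on every depleted array, with no overlap, whereas for ATF4 and HSPA5 the groups overlapped.

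ER chaperones and folding enzymes had small differences, nearly all above 0. With the deposited scaling 13 of 14 had a higher mean after depletion of NME2 (median of the log2 differences 0.069), but no gene had groups apart and 0 passed the threshold of limma, while CALR and DNAJC3 (14.3%, near the 15% of all genes) had an unadjusted p under 0.05. Median centring gave 8 of 14 higher and a median of 0.021, quantile normalization and cyclic loess 12 of 14 each. Without control replicate 1 the count was 10 of 14, and without NME2-depleted replicate 3 it was 9 of 14. HSPA5 had signals of 33894, 35193 and 41053 in NME2-depleted and 33926, 37593 and 38080 in control cells. The arrays of the groups were interleaved, and the log2 difference of 0.004 had a 95% interval of -0.18 to 0.19. Its sign turned under quantile normalization, cyclic loess and median centring. DNAJB9 (ERdj4), a co-chaperone of HSPA5 and a sensitive target of XBP1, had 14219, 14493 and 13244 against 14473, 13576 and 13439, a log2 difference of 0.016 that was below 0 after median centring.

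Larger values came from calreticulin and from a co-chaperone. CALR, a calcium-binding chaperone of glycoproteins, had signals of 5529, 6733 and 5363 in NME2-depleted and 4400, 4005 and 5558 in control cells. The groups overlapped, since control replicate 3 lay above 2 of the depleted arrays. The log2 difference was 0.34 (SE 0.12, limma adjusted p = 0.264), but the other probe sets of CALR gave 0.021 and -0.088, and without probe sets shared between transcripts the gene had the latter value. DNAJC3 (p58IPK), which binds unfolded protein with HSPA5 and is known to restrain PERK, had 5601, 5577 and 5128 against 4502, 5132 and 4555. Control replicate 2 and NME2-depleted replicate 3 were level, and the log2 difference was 0.20 (SE 0.08, adjusted p = 0.296). Of its 3 other probe sets, 2 were higher and 1 lower. HSP90B1 (GRP94), the HSP90 paralogue of the ER, had 10619, 10086 and 12900 against 9886, 9524 and 10553, 0.16 higher on the log2 scale (adjusted p = 0.507). PDIA3, a disulphide isomerase that works with calreticulin, had 15051, 13822 and 15011 against 13631, 11610 and 14407, a log2 difference of 0.15 (adjusted p = 0.49). Without NME2-depleted replicate 3 the value of HSP90B1 was 0.053, and without control replicate 2 that of PDIA3 was 0.061. In the remaining 8 genes, the disulphide isomerases PDIA4 and PDIA6, the lectin chaperone CANX, the HSPA5 cofactors DNAJB11, SDF2L1 and HYOU1, and the secreted MANF and CRELD2, differences ran from -0.0079 to 0.097.

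Genes of ER-associated degradation were measured by 3 members. EDEM1, a lectin that delivers misfolded glycoproteins for degradation, had signals of 3872, 3850 and 3355 in NME2-depleted and 3478, 3181 and 3104 in control cells. Of the depleted arrays only replicate 3 lay below a control array, and the log2 difference was 0.18 (SE 0.08, limma adjusted p = 0.385). SEL1L, the scaffold of the retrotranslocation ubiquitin ligase, had 11076, 10357 and 10332 against 9323, 9911 and 9704, a log2 difference of 0.13 (adjusted p = 0.409) with the groups just apart. Its 3 other probe sets gave values from -0.046 to 0.079, all overlapping. HERPUD1, an ER membrane protein of the same complex and a common readout of the response, had 20393, 21265 and 21933 against 20489, 22859 and 20788. These arrays were interleaved, with a log2 difference of -0.011 and a 95% interval of -0.16 to 0.14.

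Of the 5 sensors and transcription factors none had an unadjusted p under 0.05 or groups apart, with limma adjusted p-values of 0.559 and above. EIF2AK3 (PERK) had signals of 3287, 3201 and 2659 in NME2-depleted and 3172, 3214 and 2644 in control cells, nearly the same value within each replicate number. The log2 difference was 0.018, and -0.031 after median centring. ERN1 (IRE1) had 2460, 2360 and 2194 against 2609, 2353 and 2192, a log2 difference of -0.026. A dimmer probe set of ERN1, with 149, 150 and 181 against 252, 207 and 221, was lower on every depleted array (log2 difference -0.51, limma adjusted p = 0.279), while another gave 0.21 with overlap. The 3 probe sets of this gene therefore did not give 1 direction. ATF6, the membrane-bound factor that is released by cleavage, had 1387, 1229 and 1209 against 1346, 1217 and 1438, a log2 difference of -0.064, and each of its 3 other probe sets was above 0, at 0.021 to 0.13. XBP1, measured without regard to splicing, had 3105, 2762 and 3161 against 2830, 2776 and 2690. Its log2 difference was 0.12 (SE 0.08, adjusted p = 0.559), with overlap at NME2-depleted replicate 2. CREB3L2, a relative of ATF6 that supports secretion, had 2104, 2384 and 2172 against 2220, 2424 and 2229, a log2 difference of -0.046 with overlapping groups. Over all members, 33 other probe sets of 19 genes were tested, of which 24 had the direction of the brightest and 9 the opposite one, and 0 passed the threshold.

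Set side by side, the chaperone and ATF4 branches differed little in their centre and more in their spread. The median log2 difference was 0.069 in the chaperone branch and -0.049 in the ATF4 branch, where differences ran from -0.29 to 0.34 against -0.0079 to 0.34 among chaperones. With 1 array left out the chaperone median ranged from 0.041 to 0.10 and the ATF4 branch median from -0.071 to -2e-04, the last without control replicate 1. On single arrays the median chaperone, as log2 signal minus its 6-array mean, was 0.085, -0.033 and 0.094 in NME2-depleted and -0.079, -0.058 and 0.057 in control replicates 1 to 3, which overlapped. The median ATF4 branch gene was 0.019, -0.064 and 0.096 against -0.009, -0.049 and 0.008 and overlapped too. The chaperone median minus the ATF4 median was 0.066, 0.031 and -0.002 in NME2-depleted and -0.07, -0.009 and 0.049 in control arrays. No test of these medians was made, and without control replicate 1 the gap between the branches was 0.041 instead of 0.12.

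Divided by role, the ATF4 branch split. This division was made after the values were seen, so it is a description. Among its 6 genes for enzymes, a transporter and a receptor, 5 were above control in their mean, and the median of the log2 differences was 0.23. Among its 9 regulators 8 were below control (median -0.10), and the exception was ATF4 itself. Medians on single arrays were 0.17, 0.038 and 0.13 in NME2-depleted and -0.084, -0.14 and -0.067 in control cells for the enzymes, transporter and receptor. For the regulators they were -0.084, -0.082 and -0.043 against 0.029, 0.041 and 0.064. Median centring left 5 of 6 higher (median 0.19) and 9 of 9 lower (median -0.15), and without control replicate 1 the counts were 5 of 6 higher and 7 of 9 lower. The ACTB ratio given above also separated the arrays of the groups, whereas the GAPDH ratio overlapped. The part of either in this split was not tested.

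**Figure D3:**
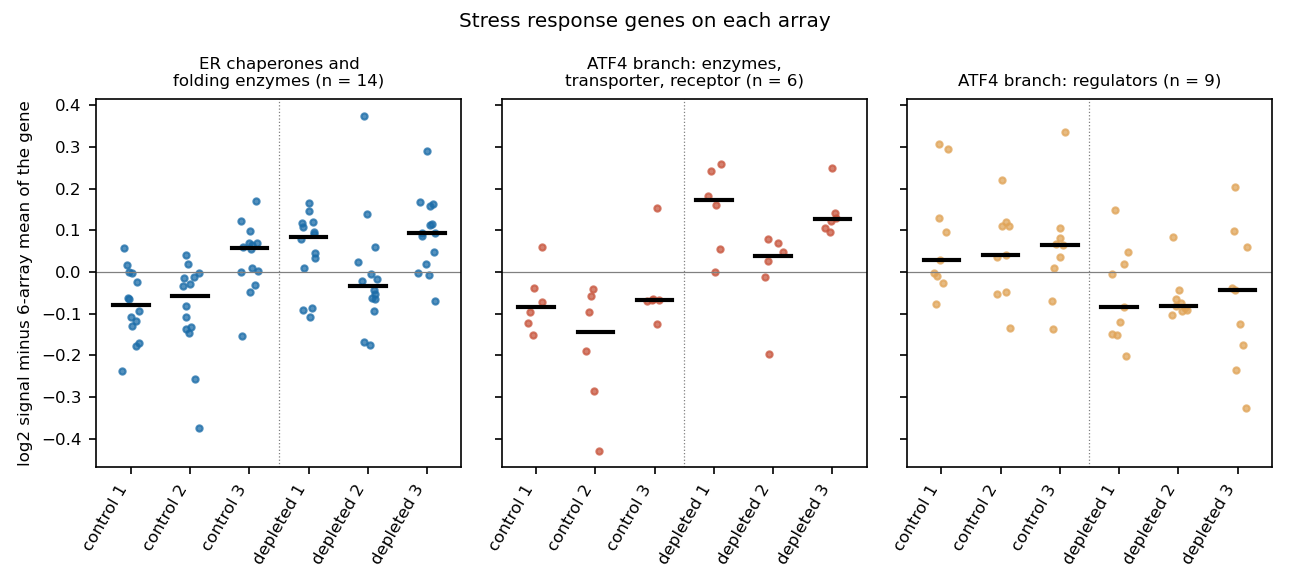
Log2 signal minus the 6-array mean of each gene, by array, for ER chaperones (14 genes), ATF4 branch enzymes, transporter and receptor (6 genes) and ATF4 branch regulators (9 genes). Points are genes and thick bars medians. The chaperone medians of the groups overlapped, those of the 6 genes were 0.038 to 0.17 in depleted and -0.14 to -0.067 in control arrays, and those of the 9 regulators were -0.084 to -0.043 and 0.029 to 0.064.

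Other genes of the same pathways came from a second list of 82 genes, of which 77 had a probe set with 1 symbol and 76 were tested. Of these 76 genes 1 passed the threshold, where 0.54% of all genes tested did. KDELR3, a receptor that returns chaperones with a KDEL tail to the ER, had signals of 6106, 6164 and 5986 in NME2-depleted and 4258, 4460 and 4928 in control cells. All depleted arrays lay above all control arrays. The mean was 6086 ± 91.1 against 4548 ± 344 (SD, n = 3), a log2 difference of 0.42 (SE 0.07, limma adjusted p = 0.0379), so KDELR3 rose 1.34-fold, and its other probe sets gave 0.33 and 0.31. The call was lost whichever array was left out (adjusted p from 0.0516 to 0.134, differences from 0.38 to 0.48) and after median centring (0.37, adjusted p = 0.0764). In the list 17 of 76 genes (22.4%) had an unadjusted p under 0.05, 12 higher and 5 lower, beside the 15% of all genes, and 53 of 76 had a higher mean, or 39 of 76 after median centring.

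Further targets of ATF4 were mostly on the higher side, as most of the enzymes above were. These targets were listed with earlier results of these data known, so they are no independent check of the split by role. This group held 13 genes of amino acid and one-carbon metabolism and 3 secreted factors, VEGFA, STC2 and GDF15. Of the 16 genes 14 had a higher mean after depletion (11 of 16 after median centring, 13 of 16 without control replicate 1). The median of their log2 differences was 0.18, and 0 passed the threshold of limma, while 6 higher and 2 lower had an unadjusted p under 0.05, which is 50% of the group beside 15% of all genes. Of the 13 metabolic genes alone 12 had a higher mean, with a median of 0.18. SLC1A4, a carrier of serine and other neutral amino acids, had signals of 2988, 2462 and 2587 in NME2-depleted and 1910, 2108 and 2224 in control cells. The groups were apart by 0.36 on the log2 scale (SE 0.09, adjusted p = 0.125). Of its 4 other probe sets, 3 gave 0.31 to 0.35 and the dimmest gave -0.15. SLC7A5, the light chain that pairs with SLC3A2 to carry leucine, went the other way, with 11276, 10435 and 11890 against 12575, 13989 and 16182. Here too the groups were apart, with a log2 difference of -0.34 (SE 0.09, adjusted p = 0.142). The only other gene of this group with a lower mean was GDF15, a stress-induced hormone, at -0.20 (adjusted p = 0.205). It was singled out after its values were seen.

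Among genes of ER translocation and traffic 13 of 15 had a higher mean (8 of 15 after median centring), with a median of 0.065. SSR1, a subunit of the translocon-associated complex, had 17330, 17987 and 19898 in NME2-depleted and 15999, 10856 and 13195 in control cells. These values did not overlap, but the control arrays spread widely. The log2 difference was 0.48 (SE 0.12, limma adjusted p = 0.116), it was 0.34 without control replicate 2 and 0.62 without control replicate 1, where it passed (adjusted p = 0.0368), and its other probe sets gave 0.033 to 0.36. Folding and oxidation genes had 11 of 12 higher means (8 of 12 after median centring), degradation genes 8 of 14, other sensors and membrane factors 3 of 7 and genes of translation control 4 of 12, with 0 past the threshold in each. In the last group EIF2AK2 (PKR), the kinase that answers double-stranded RNA and is itself induced by interferon, had 1718, 2094 and 1857 in NME2-depleted and 3179, 2076 and 2280 in control cells. It was named after its values were seen. Its highest value was on control replicate 1, the array with the high interferon signals, and the log2 difference was -0.39 (SE 0.14, adjusted p = 0.274).

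**Figure D4:**
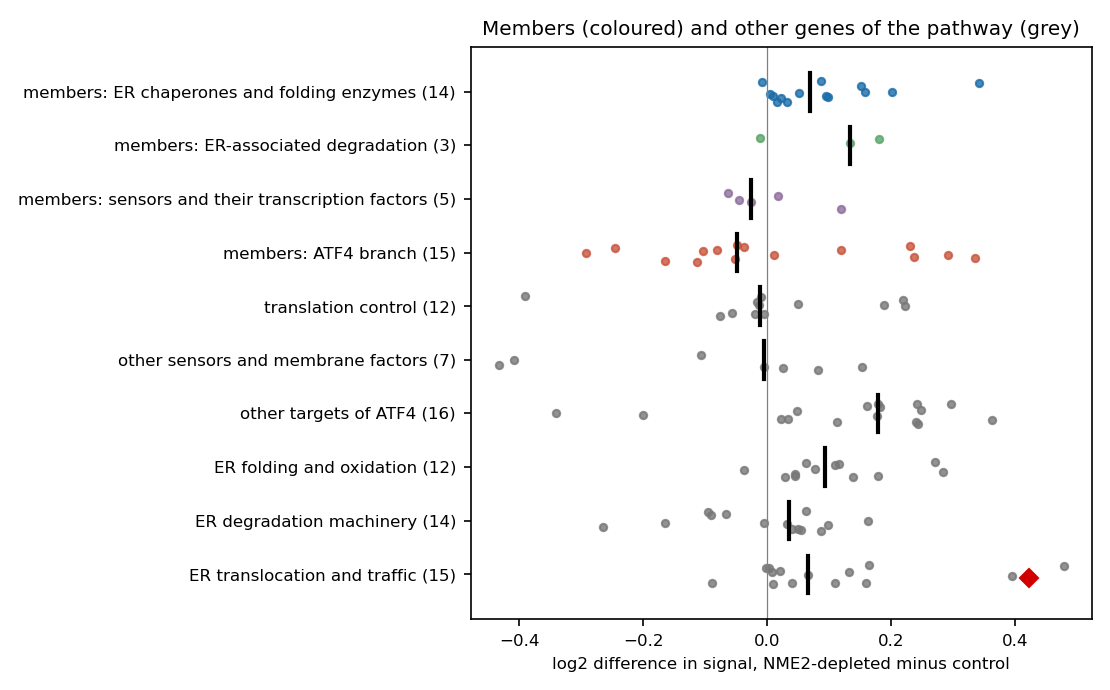
Differences on the log2 scale (NME2-depleted minus control) for members by branch (coloured) and of further pathway genes by group (grey). Points are genes, black bars are medians, numbers in brackets are genes tested, and the red diamond marks an adjusted p under 0.05. KDELR3, at 0.42, is the 1 gene so marked, and 14 of the 16 other targets of ATF4 lie above 0.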

How the data were processed

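Total RNA of 6 A549 samples was labelled as biotin-tagged cRNA and hybridised by the authors, 1 array a sample. For every probe set the authors deposited 1 linear intensity. The submitters' processing notes name GCOS 1.1.1, and the authors had scaled each array to the same mean (trimmed means from 500.06 to 500.07), which hides a shift shared by all transcripts. Other settings of that software are not given in the sources used. Arrays have no read depth, and their number, 3 per group, limits the precision.

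From these values 62 control probe sets were dropped, and the 0.327% of signals below 1 were raised to 1 before taking log2. Probe sets at or above the median of the mean log2 signal (a signal of 71.7) were tested, 27307 of 54613. limma 3.58.1 in R 4.3.3 (lmFit, eBayes with intensity trend) gave two-sided p-values, adjusted by Benjamini-Hochberg with a threshold of 0.05. GCOS change calls were not rerun. An exact permutation of 3 against 3 arrays cannot go below 0.1. The platform annotation of 2016 named 1 gene for 41091 probe sets and several for 1801, and left 11721 unnamed. Lookup by gene identifier changed 0 symbols. Each of the 12406 genes tested took the values of its brightest probe set. The procedure was tested on simulated data.

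Members and lists were chosen with earlier results of these data known. Named in full were sensors, their factors, degradation genes, HSPA5, HSP90B1, DNAJB9, ATF4, DDIT3, TRIB3, ASNS and CHAC1, and in the chaperone and ATF4 branches the 4 members of lowest p. From the second list these were the called genes and the 4 of lowest p. Alternatives covered array scaling, the offset, the filter, the choice of probe set, the variance model, the methods' t-test, the replicate number as a block and each array left out.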

Additional observations from a re-analysis of the deposited data

How the results depend on the processing

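The count of 0 members past the threshold held under every alternative run except the replicate number as a block, where VLDLR passed (0.34, adjusted p = 0.047) and the count was 1. Over all tested probe sets, samples of the same number shared little (correlations of deviations 0.114, 0.080 and 0.070), although each array correlated best with its own number. The numbers were therefore not taken to pair the samples. For some members they shared more, and the block gave a smaller SE for HSPA5 (0.0425 instead of 0.0836) and DDIT3 (0.0491 instead of 0.1082). If the numbers do pair the samples, the main intervals of such genes are too wide. With the block, 15 members had an unadjusted p under 0.05 and 6 genes of the second list passed. The main count of 9 members at an unadjusted p under 0.05 became 3 without an intensity trend and 5 without shared probe sets, which left 26 members measured, and lay between 4 and 8 with 1 array left out, at 4 without NME2-depleted replicate 1 or control replicate 2. By the methods' t-test 0 members passed after adjustment and 7 before it. The share of all genes is not set beside the counts of these alternatives. They therefore do not show whether members moved more than other genes did. KDELR3, the 1 gene called in the second list, was lost, leaving 0, with median centring, no filter, averaged probe sets, no intensity trend and the methods' t-test, and the count was 0 to 1 with 1 array left out. The degradation median of 0.13 became 0.049 with the mean of probe sets, 0.086 with median centring and 0.010 without shared probe sets. The gap between the chaperone and ATF4 medians ranged from 0.041 to 0.12 with 1 array left out. Of 26 named genes 9 changed sign somewhere, all uncalled. HSPA5 gave -0.019 with quantile normalization, -0.044 with median centring and -0.0056 with cyclic loess. Median centring gave -0.032 for DNAJB9, -0.031 for EIF2AK3 and -0.038 for ATF4, shared probe sets left out gave -0.088 for CALR and -0.15 for SLC1A4, and the mean of probe sets gave 0.042 for ATF6. With 1 array left out, HSPA5 ranged from -0.079 to 0.059, DNAJB9 from -0.010 to 0.055, HERPUD1 from -0.041 to 0.038, EIF2AK3 from -0.073 to 0.11, ERN1 from -0.085 to 0.040 and ATF4 from -0.037 to 0.065. Beyond what these alternatives are built on (fewer arrays, other probe sets), the cause was not tested.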
